A study of Mus musculus with 6 samples.

Results

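Kainate receptors are glutamate-gated cation channels assembled from 4 of the subunits GluK1 to GluK5, and Neto1 and Neto2 are membrane proteins that bind them as auxiliary subunits. The 7 genes described here, Grik1 to Grik5 and Neto1 and Neto2, were taken by symbol, and all 7 were found among the 23306 rows of the count table. The libraries were made from RNA pulled down with tagged ribosomes of parvalbumin neurons, which are fast-spiking inhibitory cells, in frontal cortex of C57BL6 males. One group carried a conditional knockout of Fxr1, the gene of a fragile X-related protein that binds RNA, and the other was wild type for Fxr1. According to the labels the mice were PV-Cre::RiboTag, a cross of a parvalbumin Cre driver with RPL22HA/WT mice, and the knockout was made with PV-Cre. In RiboTag mice Cre switches on a haemagglutinin-tagged ribosomal protein Rpl22, so both the tag and the deletion depend on where the driver is or has been active. Neither ages nor the number of animals per library are given in the labels. Of the 6 libraries of the series, 4 were analysed: knockout replicates 1 and 3 and wild type replicates 2 and 3.

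GluK1, GluK2 and GluK3, encoded by Grik1, Grik2 and Grik3, form channels on their own. GluK4 and GluK5, encoded by Grik4 and Grik5, bind agonists with high affinity and need a partner from the first class. Neto proteins slow the closing of the channel and affect where the receptor is placed. In cortical and hippocampal interneurons kainate receptors are known to excite the cell at its dendrites and to modulate GABA release from its axon.

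The receptor genes are related in sequence, so the stretches they have in common are shown first, because a read lying within one cannot be given to a single gene. The longest run of bases that 2 of the 5 coding sequences shared exactly was 38 bases, in Grik3 and Grik5. It lies in the codons of the third membrane helix, which holds the gate of the channel. The same 39 bases (13 codons) are printed for each gene on its coding strand, with capitals for the 28 positions that are identical in all 5 genes.
Grik1: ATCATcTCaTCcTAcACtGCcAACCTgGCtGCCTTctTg
Grik2: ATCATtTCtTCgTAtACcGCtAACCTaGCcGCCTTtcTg
Grik3: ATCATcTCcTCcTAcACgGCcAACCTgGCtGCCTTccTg
Grik4: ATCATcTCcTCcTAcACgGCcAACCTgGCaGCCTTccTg
Grik5: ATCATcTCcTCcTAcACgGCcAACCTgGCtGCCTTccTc
The sequences are from GENCODE M21 transcripts on mm10, each within 1 exon, at chr16:87936006-87936044, chr10:49240687-49240725, chr4:125694033-125694071, chr9:42543866-42543904 and chr7:25015916-25015954 in the order of the lines. Only Grik3 is on the plus strand. Against Grik5, the stretch differed at 1 base in Grik3, 2 in Grik4, 4 in Grik1 and 10 in Grik2. No window of 50 bases in the longest coding sequence of any receptor gene occurred in the coding sequences of another. At 36 bases 3 windows did in Grik3 and 3 in Grik5, and none in the other genes. The labels give no read length; with reads over 38 bases an exact match in coding sequence belongs to 1 of these genes.

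The libraries held between 9696126 and 10301280 counts. Reads of Rn45s, a precursor of ribosomal RNA, made up 0.711% of knockout replicate 1, and 0.283% of knockout replicate 3, 0.315% of wild type replicate 2 and 0.305% of wild type replicate 3. Fxr1, the targeted gene, measured 17.8 and 18.7 CPM (counts divided by the library's total and scaled to a common size) in knockout libraries and 98.4 and 101 CPM in wild type libraries. It fell by 81.7% in knockout (log2 fold change −2.45, SE 0.10), with an adjusted p of 1.77e-15 by the quasi-likelihood test of edgeR, adjusted over 12449 tested genes by Benjamini-Hochberg. Gad1, a GABA synthesis gene, measured 4245 and 4048 CPM in knockout libraries and 4354 and 4295 CPM in wild type libraries, and Pvalb 248 and 241 CPM in knockout and 262 and 264 CPM in wild type. Both were lower in both knockout libraries. So was the sum of 10 parvalbumin neuron markers that include them (11215 and 11256 CPM in knockout, 11555 and 11692 CPM in wild type). Of the 10, 7 measured lower and 3 higher in knockout, with 0 past the threshold by edgeR and 0 at an unadjusted p under 0.05. Over all tested genes, 30.2% had genotypes that did not overlap in CPM, in either direction. Of 7 tested striatal markers 0 passed and 4 had such an unadjusted p, against 3.23% of all tested genes. In knockout 6 measured higher, and 1, Tac1, which is also among the 10 parvalbumin neuron markers, measured lower. Their median log2 fold change was 0.38. Medians were also positive for oligodendrocyte (0.21), precursor (0.17), astrocyte (0.07), excitatory (0.05) and microglia and endothelial markers (0.02). They were −0.05 for other interneuron markers and −0.06 for parvalbumin neuron markers. The part of these markers in the values below was not tested. Markers of other cells were present too, at their highest over the 4 libraries: Sst reached 10.6 CPM, Vip 1.55, Slc17a7 85.5, Camk2a 723, Slc1a2 522, Mbp 103 and Pdgfra 7.97. Excitatory neurons and glia also express kainate receptor and Neto genes, and how much of each level below came from them was not tested. In such bulk material, fewer cells of a type and less RNA per cell cannot be told apart.

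A difference between genotypes was detected for none of the 7 genes. By edgeR, 0 of 7 passed the threshold of 0.05 on the adjusted p, and 0 of 7 had an unadjusted p under 0.05. Both counts were also 0 by DESeq2 and by limma voom. Over all tested genes, 4 passed, which is 0.0321%, and 3.23% had such an unadjusted p. Without single libraries more genes passed (29 and 48 without knockout replicates 1 and 3, 9 and 25 without wild type replicates 2 and 3), but 0 of the 7 in each case. All 7 genes passed the filter on low counts. Fold changes were small: 4 genes measured higher and 3 lower in knockout, with a median absolute log2 fold change of 0.05 against 0.09 over all tested genes. These 2 medians are not matched for precision. The median SE was 0.135 over all tested genes, against 0.202 for Grik4 and 0.0817 to 0.0945 for the others of the 7. More precise genes have smaller fold changes even without any difference in stability. The adjusted p was 0.998 by edgeR for each of the 7.

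**Figure D1:**
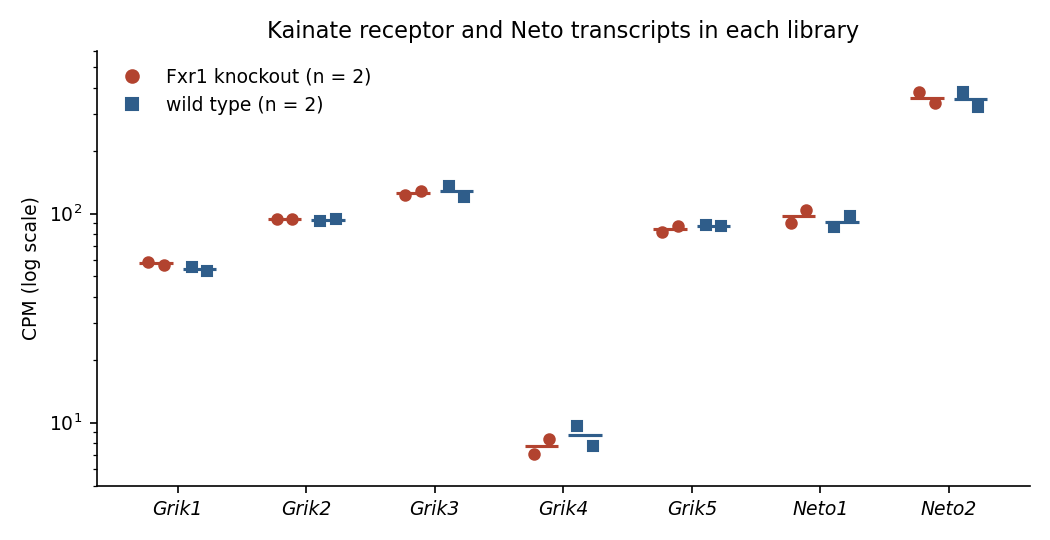
CPM of the 7 genes in each library on a log axis, with circles for Fxr1 knockout, squares for wild type, and a line at the mean of each genotype (n = 2). The genes differ in level from about 8.23 CPM (Grik4) to 355 CPM (Neto2) on average, while the genotypes of each gene lie close together.

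Of the subunits that form channels on their own, Grik2 was the steadiest. It measured 94.2 and 93.8 CPM in knockout libraries and 92.5 and 94.2 CPM in wild type libraries, from 897 to 970 counts. Its coefficient of variation over the 4 libraries was 0.851%, less than the 3.25% that counting error alone would give at this depth. The genotypes overlapped, and the log2 fold change was 0.01 (SE 0.08); its sign turned without knockout replicate 1 or wild type replicate 2.

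Grik1, the gene of the GluK1 subunit, measured 58.8 and 56.9 CPM in knockout libraries and 55.5 and 53.4 CPM in wild type libraries. Both knockout libraries were thus above both wild type libraries. The gap was small: the log2 fold change was 0.09 (SE 0.09), with a 95% interval from −0.11 to 0.28, and it did not pass the test. Grik3, the gene of GluK3, a subunit of low sensitivity to glutamate, measured 122 and 128 CPM in knockout libraries and 136 and 119.5 CPM in wild type libraries. Here the wild type libraries enclosed both knockout libraries, and the 2 wild type replicates differed by 0.18 on the log2 scale. The log2 fold change was −0.03 (SE 0.08), and 0.06 without wild type replicate 2.

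The high-affinity subunit genes differed widely in level. Grik5 measured 82.0 and 86.7 CPM in knockout libraries and 87.9 and 87.1 CPM in wild type libraries. Both knockout libraries lay below both wild type libraries, by a log2 fold change of −0.05 (SE 0.08) that did not pass. Grik4 was scarce, with 72 and 86 counts in knockout libraries (7.08 and 8.36 CPM) and 94 and 80 counts in wild type libraries (9.69 and 7.77 CPM). Its genotypes overlapped. Its log2 fold change of −0.17 was the largest of the 7 in size and also the least precise (SE 0.20), and 75.1% of all tested genes had a smaller one. It ranged from −0.32 to −0.01 when single libraries were left out.

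Grik1 and Grik5 were the 2 genes of 7 (28.6%) whose genotypes did not overlap in CPM, 1 in each direction. Over all tested genes 30.2% did not overlap, so the share among the 7 was near the background. It was again 2 of 7 on TMM-scaled CPM. With 2 libraries per genotype, an exact two-sided permutation test cannot go below p = 0.333 for any single gene.

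The intervals show what size of change the data still allow. For the 6 genes other than Grik4 the 95% intervals of the edgeR fit lay between −14.4% (Grik5) and 21.6% (Grik1) relative to the wild type level. For Grik4 the interval ran from −33.5% to 18.2%. A change of 1.5-fold up or down thus lay outside the interval of each gene except for a fall of Grik4, where the lower bound, at −0.59 (log2), just reached it. Intervals rest on 2 libraries per genotype and on the spread that edgeR shares among genes.

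**Figure D2:**
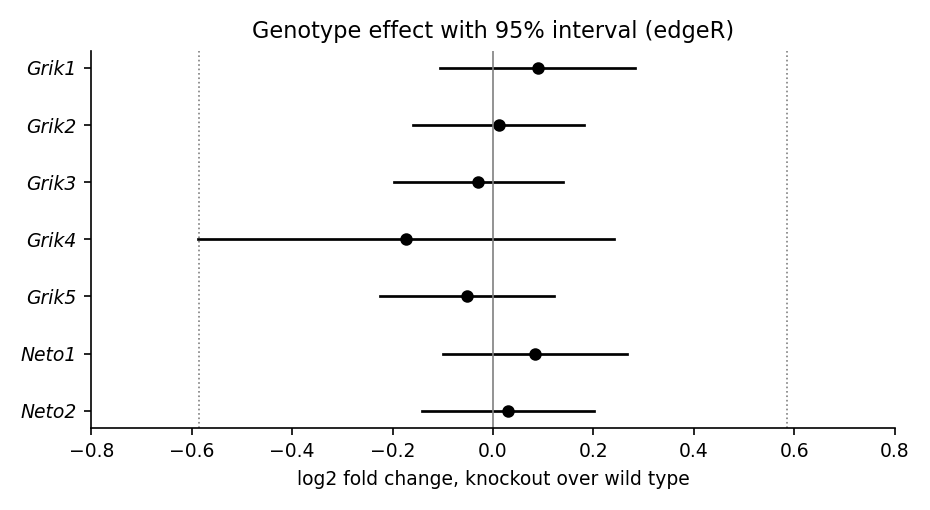
Log2 fold change of knockout over wild type for each gene (points) with the 95% interval of the edgeR fit (lines; n = 2 libraries per genotype); dotted lines mark 1.5-fold. All 7 intervals span 0, and that of Grik4 is the widest.

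For both Neto genes the gap between replicates exceeded the difference between genotype means, as it did for Grik3 and Grik4. A gap between single libraries is expected to exceed a difference of means of 2 libraries even without a genotype effect. Neto2 measured 380 and 336 CPM in knockout libraries and 380 and 323 CPM in wild type libraries (knockout replicates 1 and 3, wild type replicates 2 and 3). Neto1 measured 90.5 and 104 CPM in the same knockout libraries and 86.2 and 96.8 CPM in the same wild type libraries. In each genotype the library higher in Neto2 was the one lower in Neto1. With 2 libraries per genotype such an order arises readily between unrelated genes, and its share over all tested genes was not counted. Replicates differed by 0.18 (knockout) and 0.23 (wild type) on the log2 scale for Neto2, and by 0.20 and 0.17 for Neto1. Against these gaps, the log2 fold changes between genotypes were 0.03 (SE 0.08) for Neto2 and 0.08 (SE 0.09) for Neto1.

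The coefficient of variation over the 4 libraries was 8.27% for Neto2 and 8.05% for Neto1, whereas counting error alone would give 1.67% and 3.24%. Per kilobase of merged exons, Neto2 stood 5.72 and 4.42 times above Neto1 in knockout libraries, and 6.0 and 4.55 times in wild type libraries. The summed level of 12 markers of other interneurons was 259 and 316 CPM in knockout replicates 1 and 3 and 296 and 324 CPM in wild type replicates 2 and 3, so within each genotype it was higher where Neto1 was higher. This order was not particular to that list. It was shared by the sums of striatal markers (106 and 119 CPM in knockout, 104 and 114 CPM in wild type), of oligodendrocyte precursor markers (16.9 and 29.7 CPM in knockout, 20.2 and 20.8 CPM in wild type) and of the parvalbumin neuron markers given above. The striatal and parvalbumin lists share Tac1. In wild type the order was reversed for sums of excitatory (1259 and 1179 CPM) and astrocyte markers (673 and 643 CPM). The same was so for oligodendrocyte (308 and 279 CPM) and for microglia and endothelial markers (22.2 and 19.9 CPM). The sum of Rn45s, Malat1, Meg3 and Snhg11, a list for RNA quality, followed the order of Neto2, at 16201 and 12555 CPM in knockout libraries and 12681 and 11463 CPM in wild type libraries. In knockout this order came from Rn45s (0.711% of counts in replicate 1, 0.283% in replicate 3), and the remaining genes of the list summed the other way. The part of any of these in the Neto values was not tested. Leaving out knockout replicate 1 gave log2 fold changes of −0.07 for Neto2 and 0.17 for Neto1, and leaving out knockout replicate 3 gave 0.13 for Neto2 and −0.00287 for Neto1. Neto2 also turned without wild type replicate 3 (−0.07) and Neto1 without wild type replicate 2 (−0.00148), and neither passed in any of these fits.

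**Figure D3:**
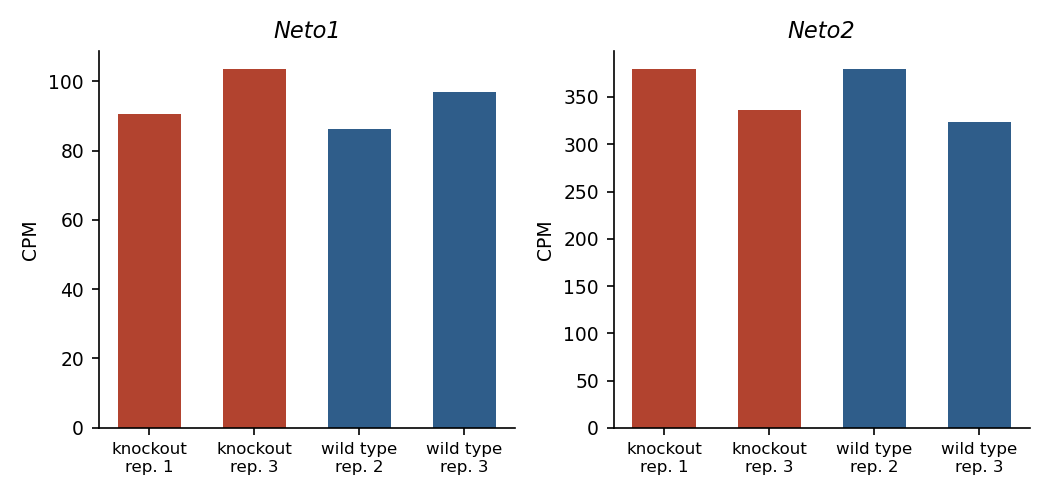
CPM of Neto1 (left) and Neto2 (right) in each of the 4 libraries, knockout first; each bar is 1 library, so there is no error bar. Within each genotype the library with more Neto2 has less Neto1, an order whose share over all tested genes was not counted.

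Levels were compared between genes per kilobase, which depends on the length taken for a gene. By merged exons of the annotation, Neto2 led with 57.9 ± 4.79 CPM per kilobase (SD, n = 4 libraries), followed by Grik5 with 16.6 ± 0.511 and Grik3 with 14.1 ± 0.801. Then came Neto1 with 11.3 ± 0.909, Grik1 with 8.35 ± 0.340, Grik2 with 7.07 ± 0.0602 and Grik4 with 1.38 ± 0.186. No neighbours in this order overlapped in their libraries. Merged exons include untranslated ends and retained introns of rare transcripts, and are 13246 bases long in Grik2 against 5168 in Grik5.

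Only the ends of the order were the same under the 3 lengths tried: Neto2 came first and Grik4 last with each. With the longest protein-coding transcript, Grik5 followed Neto2 at 22.8 ± 0.702 CPM per kilobase, and Grik1 (14.6 to 16.1) and Grik3 (13.3 to 15.1) overlapped. By coding length the receptor genes ran from Grik3 at 45.8 ± 2.61 over Grik2 at 34.4 ± 0.293, Grik5 at 29.3 ± 0.899 and Grik1 at 19.7 ± 0.802 to Grik4 at 2.87 ± 0.387 CPM per kilobase. Coding length takes no account of reads from untranslated ends.

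As shares of the 5 receptor genes per kilobase of merged exons, Grik5 made up 34.1% and 35.0% in knockout libraries and 34.7% and 36.2% in wild type libraries. Grik3 made up 29.3% and 29.7% in knockout libraries and 30.9% and 28.6% in wild type libraries. For both, the genotypes overlapped. Grik1 took 18.8% and 17.6% in knockout libraries, against 16.8% and 17.1% in wild type libraries, a difference of means of 1.26 percentage points, with genotypes that did not overlap. That difference was 0.686 points without knockout replicate 1 and 1.84 points without knockout replicate 3. Grik2 averaged 15.0% ± 0.362 in knockout and 14.8% ± 0.728 in wild type, and Grik4 2.74% ± 0.264 in knockout and 3.06% ± 0.366 in wild type (SD, n = 2 each). Together the high-affinity genes Grik4 and Grik5 took 37.3% ± 0.896 in knockout and 38.5% ± 0.710 in wild type. By library this was 36.6% and 37.9% in knockout and 38.0% and 39.0% in wild type, so these genotypes did not overlap either. With 2 libraries per genotype such a separation is common: in CPM, 30.2% of all tested genes had genotypes that did not overlap. Shares were not tested, being scores over the chosen genes.

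**Figure D4:**
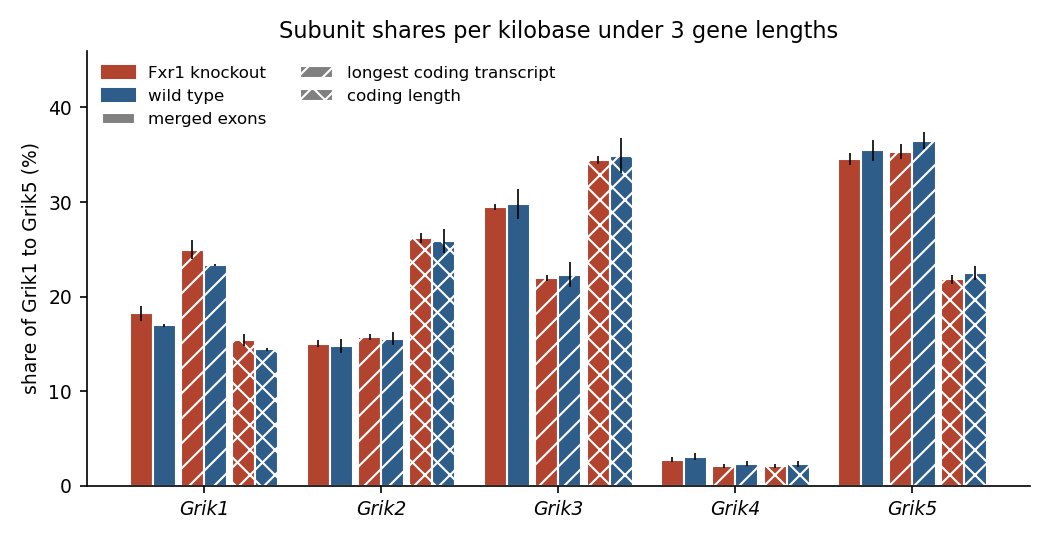
Share of each receptor gene in the sum over Grik1 to Grik5, in percent of CPM per kilobase, for Fxr1 knockout (left bar of each pair) and wild type, with SD over 2 libraries as error bars and hatching for the gene length used. The choice of length moves a share further (Grik2 from 14.9% to 26.1% on average) than genotype does.

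The summed level of the 5 receptor genes was 364 and 373 CPM in knockout libraries and 381 and 362 CPM in wild type libraries. That of Neto1 and Neto2 was 470 and 440 CPM in knockout libraries and 466 and 420 CPM in wild type libraries. Both sums overlapped between genotypes.

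Kainate receptor genes were a minor class among the 18 ionotropic glutamate receptor genes. Per kilobase of merged exons they made up 8.99% ± 0.0497 of the sum in knockout and 9.05% ± 0.213 in wild type (SD, n = 2 each). AMPA receptor genes (Gria1 to Gria4) made up 60.6% ± 0.0435 in knockout and 60.6% ± 0.166 in wild type, and NMDA receptor genes (Grin) 28.98% ± 0.0843 in knockout and 29.05% ± 0.474 in wild type. With the other lengths the kainate class averaged 8.33% (longest protein-coding transcript) and 8.23% (coding length) over the 4 libraries.

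For the other ionotropic receptor genes no difference was detected either. Of 13 listed AMPA, NMDA and delta receptor genes 12 were tested, and 0 passed by edgeR, with 0 at an unadjusted p under 0.05; both counts were also 0 by DESeq2 and by limma voom. Of the 12, 6 measured higher and 6 lower in knockout, at a median log2 fold change of 0.00 (−0.000787), and that of all tested genes was −0.00146. Among the smallest unadjusted p values were those of Grid1, which encodes a delta receptor (0.12, SE 0.11), and of the NMDA receptor genes Grin2a (−0.08, SE 0.08) and Grin2d (−0.07, SE 0.10).

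The same held for genes whose products bind, move, modify or edit kainate receptors. Of 20 listed, 19 were tested and 0 passed by edgeR, with 0 at an unadjusted p under 0.05, as also by DESeq2 and limma voom; 10 measured higher and 9 lower in knockout. Their median log2 fold change was 0.00 (0.00307). By the smallest unadjusted p these were Cdh2, which encodes N-cadherin (−0.13, SE 0.09), C1ql3, which encodes a secreted synaptic protein (0.28, SE 0.19), Klhl17, which encodes the actin-binding protein actinfilin (0.16, SE 0.15), and Ppp3ca, which encodes a catalytic subunit of calcineurin (−0.05, SE 0.07). Adarb1 encodes the main RNA-editing enzyme for the pore site of GluK1 and GluK2. It measured 877 and 838 CPM in knockout libraries and 867 and 846 CPM in wild type libraries, with overlapping genotypes and a log2 fold change of 0.00 (0.00307, SE 0.07). It is named for this role, after its values were seen. Editing itself was not measured by gene counts.

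The genes with the most similar profiles over the 4 libraries were looked up for Neto1 and Grik1, the 2 of the 7 with the smallest unadjusted p (0.353 and 0.356 by edgeR's test across all genes). Likeness was the root mean square difference of centred log2 CPM among 8424 genes of at least 10 CPM. For Neto1 the nearest were Dnmbp (0.00646), D1Ertd622e (0.00722) and Gjd2 (0.0114), the last a gap junction gene of interneurons. For Grik1 they were Hspa4l (0.00479), Rpl11 (0.00548) and Lancl2 (0.00761). With so few libraries many genes come close: 367 lay within 0.05 of Neto1 and 1131 within 0.05 of Grik1.

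By position on mm10, the receptor genes lie on chromosomes 16 (Grik1), 10 (Grik2), 4 (Grik3), 9 (Grik4) and 7 (Grik5), and Neto1 and Neto2 on chromosomes 18 and 8. None lies on chromosome 3, where Fxr1 is (34019943 to 34070322). Exons of Neto1 overlap 219 bases of an antisense RNA, those of Grik4 59 bases of a small RNA on the same strand and those of Neto2 20 bases of a microRNA on the other strand. Grik1, Grik2, Grik3 and Grik5 have no exon overlap with another annotated gene. The labels do not say whether counting used strand, so the Neto1 level may hold antisense reads.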

How the data were processed

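Per the labels' protocols, RNA came from RiboTag immunoprecipitation and a stranded kit for total RNA was used. The submitters' processing notes name STAR and the mm10 build; how reads were counted, with which annotation and strand setting, is not given in the sources used here. The table that the authors deposited holds raw counts by gene symbol, used here without change. Only columns named for exactly 1 sample were used, 4 in all; 2 columns that bear the same name were not used. Replicate numbers follow accession order and pair nothing. Nothing states that libraries came from separate animals, so p-values measure the spread between libraries, which may be technical.

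The test was that of edgeR 4.0.16 in R 4.3.3 (TMM, filterByExpr, robust quasi-likelihood fit of knockout over wild type, Benjamini-Hochberg adjustment over 12449 genes, threshold 0.05). Standard errors are the log2 fold change divided by the root of the F statistic. CPM uses library totals. Gene lengths are from GENCODE M21. The fit was tested on simulated data. The design had foreseen all 6 libraries. The genes, lists and tests were chosen with earlier results of these data known. Named are the 7 genes, Fxr1, 9 cell markers, the 4 smallest unadjusted p values of each of the 2 receptor lists, and similar profiles; 1 gene that this rule names is not reported here. Alternatives were DESeq2 1.42.0 (Wald test and size factors), limma 3.58.1 (voom), library totals, other filters (none; 5 CPM in 3 libraries), a non-robust fit, other gene lengths and each library left out.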

Additional observations from a re-analysis of the deposited data

How the results depend on the processing

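None of the 7 genes passed under any of 11 alternatives for tool, scaling, filter, robustness or left-out library, where the lowest adjusted p was 0.972. Directions held in 70 of 77 such values, and the 7 that turned did so when a library was left out. For each gene, 7 of the 11 alternatives refit the same 4 libraries, so directions could hardly turn there. The count of 70 therefore says little about how firm the directions are. Over the left-out libraries the log2 fold change ranged from −0.00729 to 0.0338 for Grik2, from −0.110 to 0.0591 for Grik3, from −0.00287 to 0.181 for Neto1 and from −0.0743 to 0.144 for Neto2. It turned without knockout replicate 1 (Grik2, −0.00527; Neto2, −0.0743), knockout replicate 3 (Neto1, −0.00287), wild type replicate 2 (Grik2, −0.00729; Grik3, 0.0591; Neto1, −0.00148) and wild type replicate 3 (Neto2, −0.0727). Grik1 ranged from 0.0510 to 0.126, Grik4 from −0.318 to −0.0135 and Grik5 from −0.0784 to −0.0249. A genotype left with 1 library is assumed to vary like the other. The fall of Fxr1 held under all 11, from −2.47 to −2.42.

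Over all genes, 4 past the threshold became 13 with no filter on low counts, 1 with library totals and 2 by DESeq2; without single libraries there were 9 to 48 (29 and 48 without knockout replicates 1 and 3, 9 and 25 without wild type replicates 2 and 3).

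Mean shares depended on length, by construction. By coding length they were 14.9% for Grik1, 26.1% for Grik2, 34.7% for Grik3, 2.17% for Grik4 and 22.2% for Grik5, with Neto2 at 78.3% of both Neto genes. As CPM with no length they were 15.2%, 25.3%, 34.1%, 2.22% and 23.2%, with Neto2 at 78.9%. By the longest protein-coding transcript, added after seeing the data, they were 24.2%, 15.6%, 22.1%, 2.19% and 35.9%. The differences in share between genotypes (knockout minus wild type) kept their sign under each length. Without single libraries they ranged, in percentage points, from 0.686 to 1.84 for Grik1, −0.255 to 0.774 for Grik2, −1.42 to 0.841 for Grik3, −0.580 to −0.0619 for Grik4, −1.67 to −0.150 for Grik5 and −2.37 to 1.36 for Neto2. The sign turned without wild type replicate 2 for Grik2, Grik3 and Neto2, and without knockout replicate 3 for Neto2. No paired analysis was possible because replicate numbers follow accession order. At 72 to 94 counts per library, Grik4 has the least precise values.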
